A study of Homo sapiens with 8 samples.

Results

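The 49 genes described here code for proteins that signal DNA damage or repair the lesions that platinum drugs leave in DNA. They were taken by function and fall into 6 branches: 7 genes of the damage checkpoint, 11 of homologous recombination, 14 of the Fanconi anemia pathway, 11 of nucleotide excision repair, 2 of mismatch repair and 4 of translesion synthesis. Probes were assigned to genes through the RefSeq accession that the arrays give for each probe, the brightest probe of each gene was used, and the 49 genes were among 20503 genes with a named probe, of which 15552 were bright enough to be tested. All 49 had a probe well above background on each of the 8 arrays.

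The RNA came from MDAH and SKOV3, cell lines of epithelial ovarian cancer, and was hybridised to 8 Agilent arrays in a single colour, 2 for each of 4 groups. The study describes MDAH cells as carrying a mutated p53 and SKOV3 cells as having none. In each line the controls were 2 samples not silenced for SFPQ, an RNA-binding protein of the nucleus, and the silenced cells carried sh-SFPQ#2 on 1 array and sh-SFPQ#3 on the other, so that each silenced group held a single array per short hairpin RNA. The methods list 1 parental and 1 control-shRNA sample per line, while the labels give both controls the same name, so that the 2 controls of a line may be unlike samples and which is which is not settled here. None of the samples is labelled as treated with platinum, and the levels are those of cells without an added drug as far as the labels state. Nothing in the labels says that the 2 samples of a group came from separate cultures, so that p-values measure the spread between these samples only.

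Platinum binds to neighbouring purines of one strand, or ties both strands together. Adducts within a strand are cut out by nucleotide excision repair, while crosslinks between strands are opened by the Fanconi anemia pathway and nucleases, copied past by translesion polymerases, and finished by homologous recombination on the sister chromatid. The checkpoint kinases ATM and ATR report breaks and stalled forks to CHEK2 and CHEK1, and mismatch repair recognises adducts that mispair.

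Levels are given as log2 signal minus the 75th percentile of the array, so that a level of 0 is the 75th percentile, and the values of a gene are listed in the order control 1, control 2, sh-SFPQ#2 and sh-SFPQ#3. SFPQ itself stood at 3.64, 3.91, 2.45 and 2.10 in MDAH cells and at 4.84, 4.66, 3.01 and 2.48 in SKOV3 cells, and both silenced arrays lay below both controls in each line. It fell by 1.50 ± 0.23 (SE) on the log2 scale in MDAH (adjusted p = 0.0328 from limma) and by 2.01 ± 0.23 in SKOV3 cells (adjusted p = 0.0299). The 75th percentile of the signal ranged from 244 to 496 between arrays, lowest on the MDAH array with sh-SFPQ#3. In MDAH 56.7% and 57.0% of probes were well above background on the controls, against 50.2% and 47.7% on the silenced arrays. On the SKOV3 arrays the share ran from 47.8% to 51.0%. The 8 arrays shared 1 slide and 1 scan. Lines lay in separate rows, silenced samples after controls, and an effect of position cannot be told apart from that of the group. Of 8 epithelial markers 7 or 8 were above background on every array, with CDH1 on 6 of the 8. Of 6 ovarian markers only 2 to 4 were above background on each array. PAX8 and SOX17 were so on all 8, ESR1 on 5, WT1 on 4, MUC16 on 2 and MSLN on none. Among markers of fibroblasts, endothelium and leukocytes COL1A1, CDH5, PTPRC and CD14 were above background on all arrays, and COL3A1, LUM, PDGFRB, CLDN5 and CD3E on none.

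Averaged over both lines, 4 of the 49 genes passed an adjusted p of 0.05 in limma on silencing, or 8.16%, where 5.66% of all genes tested passed. ATM, FANCC and FANCL fell (3.64% of all genes did) and ERCC6 rose (2.02% did). In MDAH cells alone only FANCL passed (2.04% of the 49, where 2.03% of all genes did), in SKOV3 cells none did (0.997% of all genes), and no gene of the 49 passed for a difference of the silencing effect between the lines (0.0965% of all genes). At an unadjusted p under 0.05 there were 15 of the 49 in MDAH (23.1% of all genes), 6 in SKOV3 (19.5%), 13 in the average (26.4%) and 4 in the difference (14.9%). At the unadjusted p the shares of the 49 were thus close to those of all genes in the average, higher in MDAH and lower in SKOV3 and in the difference. At the adjusted p the shares in MDAH were alike, and that of the 49 was higher in the average. These shares were not tested against each other.

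**Figure D1:**
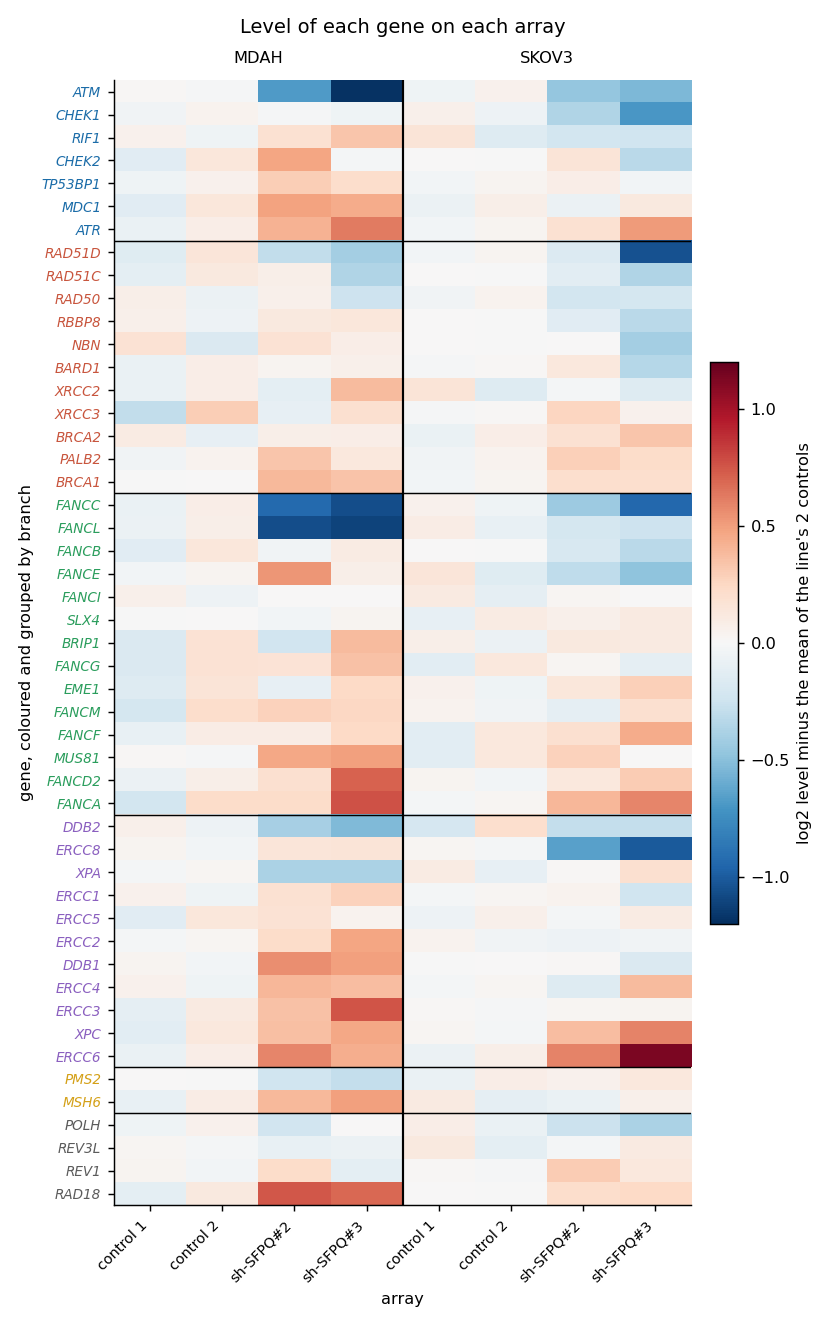
Level of each of the 49 genes on each of the 8 arrays, as the log2 level minus the mean of the 2 controls of the same line (colour, from -1.2 to 1.2), with genes grouped by branch and sorted within a branch by the average change. FANCC and ATM are blue on all 4 silenced arrays, FANCL is much darker in MDAH than in SKOV3 cells, and ERCC6 is reddest with sh-SFPQ#3 in SKOV3 cells.

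The promoters of the 4 genes that passed are printed to show what sequence lies before genes that fell (ATM, FANCC, FANCL) and the one that rose (ERCC6). They are RefSeq sequences of the build GRCh38.p14, 300 bases each, from 250 bases before to 50 after the start of the gene, read 5′ to 3′ on the strand of the gene, and lie at chr11:108222817-108223116 (plus strand), chr9:95317660-95317959, chr2:58241276-58241575 and chr10:49539072-49539371 (all minus strand). Capitals mark E2F motif letters (TTTCCCGC, TTTGGCGC, TTTCGCGC or TTTGCCGC, either strand) and CCAAT (either strand, so that it can read ATTGG). No word of one set overlaps a word of the other in these 4 sequences.
ATM: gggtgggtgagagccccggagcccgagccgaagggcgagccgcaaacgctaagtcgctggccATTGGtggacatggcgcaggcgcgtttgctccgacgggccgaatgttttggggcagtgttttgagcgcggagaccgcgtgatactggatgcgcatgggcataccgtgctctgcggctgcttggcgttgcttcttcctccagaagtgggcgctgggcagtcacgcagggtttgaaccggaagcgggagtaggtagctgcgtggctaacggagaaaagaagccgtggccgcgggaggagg
FANCC: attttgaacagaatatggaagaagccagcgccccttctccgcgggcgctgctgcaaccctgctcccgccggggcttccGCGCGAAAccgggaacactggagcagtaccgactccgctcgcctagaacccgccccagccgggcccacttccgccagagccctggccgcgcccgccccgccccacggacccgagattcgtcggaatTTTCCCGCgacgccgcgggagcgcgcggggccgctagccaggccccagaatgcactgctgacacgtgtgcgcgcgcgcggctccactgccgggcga
FANCL: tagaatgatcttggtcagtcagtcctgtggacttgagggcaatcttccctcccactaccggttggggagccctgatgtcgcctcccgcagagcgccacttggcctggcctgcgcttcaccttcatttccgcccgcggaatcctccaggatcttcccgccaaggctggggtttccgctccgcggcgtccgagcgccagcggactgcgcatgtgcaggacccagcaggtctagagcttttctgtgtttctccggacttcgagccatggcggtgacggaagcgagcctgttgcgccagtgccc
ERCC6: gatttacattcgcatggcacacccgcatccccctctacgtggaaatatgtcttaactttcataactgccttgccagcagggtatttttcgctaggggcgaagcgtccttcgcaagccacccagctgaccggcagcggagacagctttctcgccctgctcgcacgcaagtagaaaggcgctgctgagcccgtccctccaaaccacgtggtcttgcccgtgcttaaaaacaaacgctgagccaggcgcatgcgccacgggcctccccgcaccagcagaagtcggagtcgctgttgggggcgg

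FANCC held 2 of the E2F words, ATM 1 CCAAT, and FANCL and ERCC6 neither. Over the 47 members found in the promoter table, 7 (14.9%) held an E2F word, against 5.05% of 12071 tested genes found there and 3.31% of all 35116 promoters, and 18 (38.3%) held CCAAT, against 36.5% and 34.6%. The E2F words were in 3 of 13 Fanconi anemia promoters, both mismatch repair promoters, 1 of 10 homologous recombination and 1 of 11 nucleotide excision promoters, and in none of the 7 checkpoint and 4 translesion promoters. CCAAT was in 6 of the 7 checkpoint promoters. The 3 genes that fell thus shared neither of these words. A matched word is a description of the letters and no sign of a bound factor.

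Among the checkpoint genes, ATM fell, and ATR lay higher on all silenced arrays without passing the test. ATM (NM_000051), the kinase that is activated at double-strand breaks, stood at 0.98, 0.95, 0.28 and -0.22 in MDAH cells and -0.63, -0.53, -1.04 and -1.12 in SKOV3 cells. All 4 silenced arrays lay below the controls of their line, and the 2 SKOV3 controls lay below every MDAH array. ATM changed by -0.93 ± 0.19 in MDAH (adjusted p = 0.0683), by -0.50 ± 0.19 in SKOV3 (adjusted p = 0.227), and fell by 0.72 ± 0.14 in the average (adjusted p = 0.0361 from limma), or 1.64-fold. A second ATM probe with the same accession did not follow it, with levels of -1.60, -1.92, -1.85 and -1.58 in MDAH cells and -2.61, -2.77, -2.14 and -2.09 in SKOV3 cells and an average change of 0.31 ± 0.13 (adjusted p = 0.183). With the mean of both probes the average change of ATM was -0.20 (adjusted p = 0.249), so that its call holds for the brighter probe only.

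ATR (NM_001184), the kinase that is activated by single-stranded DNA at stalled forks and a gene the study names, stood at 2.14, 2.30, 2.64 and 2.85 in MDAH cells and 3.29, 3.35, 3.50 and 3.83 in SKOV3 cells. The silenced arrays lay above the controls in both lines, highest with sh-SFPQ#3. Its change was 0.52 ± 0.17 in MDAH, 0.35 ± 0.17 in SKOV3 and 0.43 ± 0.12 in the average, where the adjusted p of 0.0859 missed the threshold. The second ATR probe gave an average of 0.47 ± 0.13 (adjusted p = 0.0695), in the same direction on every silenced array.

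Of the effector kinases, CHEK1, which ATR activates, stood at 2.10, 2.18, 2.13 and 2.09 in MDAH cells and 1.70, 1.59, 1.28 and 0.95 in SKOV3 cells. Its SKOV3 change of -0.53 ± 0.16 was among the 4 lowest of that line (adjusted p = 0.163), while the MDAH silenced arrays overlapped the controls. CHEK2, the kinase downstream of ATM, changed by 0.23 ± 0.24 in MDAH and -0.08 ± 0.24 in SKOV3, and silenced and control arrays overlapped in both. MDC1, the scaffold that binds marked chromatin at breaks, and TP53BP1 and RIF1, which hold back the trimming of broken ends, were above both controls in MDAH by 0.46, 0.26 and 0.26. None of the 3 passed the test, with adjusted p from 0.167 to 0.376, and in SKOV3 RIF1 lay below both controls by 0.23 while the other two overlapped.

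The Fanconi anemia branch, the largest with 14 of the 49 genes, held 2 of the 3 genes that fell in the average (3.64% of all genes did). FANCL (NM_018062), the ubiquitin ligase subunit of the core complex, stood at 3.51, 3.65, 2.51 and 2.47 in MDAH cells and 3.65, 3.47, 3.35 and 3.32 in SKOV3 cells. The MDAH silenced arrays lay more than 1 log2 unit below the controls of that line on average, and the SKOV3 silenced arrays lay just below theirs. FANCL fell by 1.09 ± 0.14 in MDAH, 2.12-fold (95% interval of the change -1.43 to -0.74, adjusted p = 0.0222 from limma), against a change of -0.23 ± 0.14 in SKOV3 (adjusted p = 0.425). The difference between the lines was -0.86 ± 0.20 and did not pass (adjusted p = 0.197). The average fell by 0.66 ± 0.10 (adjusted p = 0.0234). A second FANCL probe, for NM_001114636, gave -1.05 in MDAH (adjusted p = 0.0285), -0.30 in SKOV3 and -0.68 in the average (adjusted p = 0.0238), in a fit of all named probes in which 2.27% passed in MDAH, 1.16% in SKOV3 and 6.90% in the average.

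FANCC (NM_000136), another subunit of the core complex, stood at 1.71, 1.87, 0.86 and 0.73 in MDAH cells and 2.31, 2.20, 1.81 and 1.32 in SKOV3 cells. All silenced arrays lay below their controls, and the lowest array of each line was that with sh-SFPQ#3. FANCC changed by -1.0 ± 0.20 in MDAH (adjusted p = 0.0634) and by -0.69 ± 0.20 in SKOV3 (adjusted p = 0.148), and its average fell by 0.84 ± 0.14, 1.79-fold (adjusted p = 0.0278 from limma). The second FANCC probe, for NM_001243744, was dimmer at -1.54, -1.35, -2.29 and -2.92 in MDAH cells and -1.29, -1.38, -2.65 and -3.02 in SKOV3 cells. It changed by -1.17, -1.50 and -1.33 in MDAH, SKOV3 and the average (adjusted p = 0.067, 0.0497 and 0.0136 over all named probes), so that both probes of FANCC and both of FANCL fell in the average, where those of ATM disagreed.

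**Figure D2:**
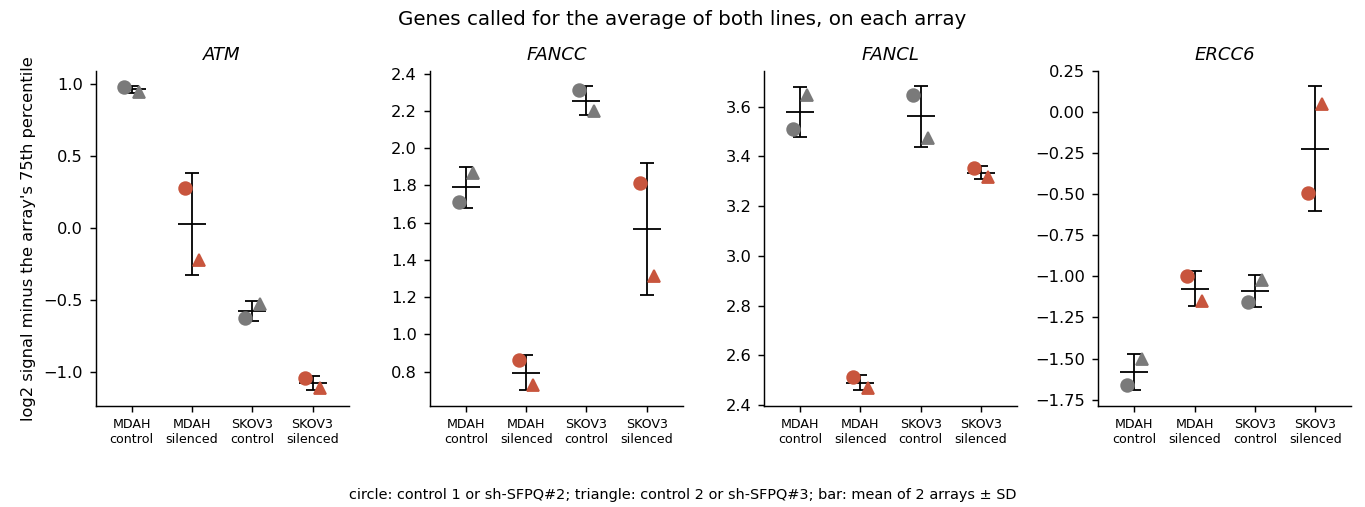
Level of ATM, FANCC, FANCL and ERCC6 on each array (y axis, log2 signal minus the 75th percentile of the array, a scale of its own in each panel) for control (grey) and SFPQ-silenced (red) arrays of each line, with the mean and SD of 2 arrays. In each panel both silenced arrays of a line lie on the same side of both controls, and the change of FANCL is -1.09 in MDAH and -0.23 in SKOV3.

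No other gene of the Fanconi anemia branch passed. FANCA, whose product stabilises the complex, stood at 1.79, 2.23, 2.24 and 2.77 in MDAH cells and 1.44, 1.48, 1.86 and 2.04 in SKOV3 cells, with a change of 0.49 ± 0.24 in MDAH and 0.49 ± 0.24 in SKOV3 (average 0.49, adjusted p = 0.125). In MDAH its lowest silenced array exceeded the highest control by less than 0.01, and 1 of its other 2 probes went the other way (average -0.30). FANCE, which links the core to FANCD2, stood at 4.03, 4.10, 4.59 and 4.14 in MDAH cells and 3.59, 3.31, 3.14 and 2.97 in SKOV3 cells. Its silenced arrays were above the controls in MDAH and below them in SKOV3, and the difference of 0.70 ± 0.29 did not pass (adjusted p = 0.328). FANCB, FANCF, FANCG and FANCM, further parts of the complex or its anchor on DNA, changed by 0.03 to 0.26 in MDAH and -0.26 to 0.32 in SKOV3, and none passed in either line (lowest adjusted p = 0.36, for FANCF in SKOV3).

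FANCD2 and FANCI, the pair that the core complex ubiquitinates at a crosslink, changed by 0.33 ± 0.14 and 0.01 ± 0.10 in the average (adjusted p = 0.198 and 0.963). FANCD2 lay above both controls in both lines with the probe used, and FANCI overlapped in both. The other 2 FANCD2 probes gave -0.19 and -0.01 in MDAH and 0.61 and 0.09 in SKOV3. The nuclease MUS81 stood at 3.21, 3.19, 3.66 and 3.69 in MDAH cells and 2.93, 3.18, 3.33 and 3.06 in SKOV3 cells, above both controls in MDAH (change 0.48 ± 0.16, adjusted p = 0.161), and overlapped them in SKOV3. Its partner EME1, the nuclease scaffold SLX4 and the helicase BRIP1 changed by 0.04 to 0.14 in the average, with adjusted p of 0.53 or more.

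In nucleotide excision repair, ERCC6 (NM_000124) rose. It codes for the CSB protein, which starts repair where RNA polymerase is stopped by a lesion. ERCC6 stood at -1.66, -1.50, -1.0 and -1.15 in MDAH cells and -1.16, -1.02, -0.49 and 0.05 in SKOV3 cells, with all silenced arrays above their controls. Its change was 0.51 ± 0.21 in MDAH (adjusted p = 0.209) and 0.86 ± 0.21 in SKOV3 (adjusted p = 0.111), and the average rose by 0.69 ± 0.15, 1.61-fold (adjusted p = 0.0477 from limma).

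ERCC8, the CSA protein that acts with ERCC6 in the same step, stood at -0.19, -0.25, -0.08 and -0.07 in MDAH cells and -0.24, -0.29, -0.92 and -1.27 in SKOV3 cells. Its SKOV3 silenced arrays were the lowest, 0.83 ± 0.16 below the controls (adjusted p = 0.0785), while the MDAH silenced arrays were slightly above theirs. The difference between the lines of 0.98 ± 0.23 was the highest among the 49 genes and did not pass (adjusted p = 0.197).

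Of the lesion sensors, XPC, which finds helix distortions across the genome, stood at 0.17, 0.42, 0.66 and 0.76 in MDAH cells and 0.03, -0.01, 0.38 and 0.60 in SKOV3 cells. All its silenced arrays were above their controls, with an average change of 0.45 ± 0.11 (adjusted p = 0.0694). DDB2, the subunit of the ultraviolet damage sensor that touches DNA, stood at 3.83, 3.71, 3.37 and 3.24 in MDAH cells and 2.22, 2.63, 2.14 and 2.14 in SKOV3 cells, and its silenced arrays were below the controls in both lines (average -0.38 ± 0.13, adjusted p = 0.12). The second DDB2 probe gave 0.01 in MDAH, -0.35 in SKOV3 and -0.17 in the average (adjusted p = 0.434). DDB1, its partner and a ubiquitin ligase adaptor, stood at 4.86, 4.79, 5.38 and 5.32 in MDAH cells and 4.98, 4.99, 5.0 and 4.81 in SKOV3 cells. DDB1 lay above both controls in MDAH (change 0.52 ± 0.14, adjusted p = 0.107) and overlapped them in SKOV3.

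ERCC3 and ERCC2, the helicases that open the DNA around the lesion, changed by 0.56 ± 0.18 and 0.35 ± 0.15 in MDAH and by 0.03 ± 0.18 and -0.05 ± 0.15 in SKOV3. The second ERCC2 probe gave 0.20 in MDAH, -0.80 in SKOV3 and -0.30 in the average (adjusted p = 0.232). ERCC3 stood at 1.33, 1.55, 1.79 and 2.20 in MDAH cells, with both silenced arrays above both controls (adjusted p = 0.146). ERCC1, which the study names and which forms a nuclease with ERCC4, stood at 3.63, 3.54, 3.76 and 3.86 in MDAH cells and 3.44, 3.48, 3.50 and 3.22 in SKOV3 cells. It lay above both controls in MDAH (change 0.23 ± 0.15, adjusted p = 0.412) and overlapped them in SKOV3, as ERCC4 did with 0.38 ± 0.20 in MDAH. ERCC5, the nuclease of the other side, changed by 0.11 and 0.04 and overlapped in both lines.

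XPA, which checks the lesion and holds the complex together, was read by 2 probes that differed. The coding probe stood at 0.69, 0.74, 0.33 and 0.33 in MDAH cells and 1.64, 1.45, 1.56 and 1.73 in SKOV3 cells, below both controls in MDAH only (change -0.38 ± 0.15, adjusted p = 0.194). The probe for the noncoding transcript NR_027302 stood at -2.12, -2.29, -2.01 and -1.92 in MDAH cells and -0.72, -0.99, -0.02 and 0.10 in SKOV3 cells. Its silenced arrays were above the controls in both lines, with an average of 0.57 ± 0.11 that passed (adjusted p = 0.0378 over all named probes).

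Homologous recombination had no gene past the threshold in any silencing comparison, nor had mismatch repair and translesion synthesis. Over all genes 2.03% passed in MDAH, 0.997% in SKOV3, 5.66% in the average and 0.0965% for the difference. At these shares, branches of 11, 2 and 4 genes are too small for an absence of calls to set them apart. BRCA1, a ubiquitin ligase that opens the way for recombination and that the study names, stood at 2.47, 2.48, 2.87 and 2.82 in MDAH cells and 3.20, 3.27, 3.44 and 3.44 in SKOV3 cells. Its silenced arrays were above the controls in both lines, by 0.37 ± 0.13 and 0.20 ± 0.13 (average 0.28, adjusted p = 0.117). BARD1, its partner, stood at 1.82, 1.98, 1.94 and 1.97 in MDAH cells and 1.84, 1.87, 1.98 and 1.51 in SKOV3 cells and overlapped in both lines. BRCA2, which loads the recombinase, stood at -2.53, -2.73, -2.56 and -2.55 in MDAH cells and -1.40, -1.25, -1.15 and -1.0 in SKOV3 cells. It overlapped in MDAH and lay above both controls in SKOV3 (change 0.25 ± 0.15, adjusted p = 0.397). PALB2, the bridge between BRCA1 and BRCA2, was above both controls in both lines, by 0.23 ± 0.15 and 0.26 ± 0.15 (adjusted p = 0.196 for the average). The sign turned with the scaling or with 1 array for BARD1, for BRCA2 in MDAH, and for ERCC1 in SKOV3 and the average. No direction is read from the changes of these genes.

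Among the recombinase paralogs, which form the complexes that steady the filament, RAD51D stood at 1.19, 1.48, 1.04 and 0.93 in MDAH cells and 0.60, 0.65, 0.46 and -0.42 in SKOV3 cells. Its silenced arrays were below the controls in both lines, and the spread in SKOV3 came from the single low array with sh-SFPQ#3 (average -0.48 ± 0.20, adjusted p = 0.192). A dimmer RAD51D probe, for NM_001142571, gave an average of -0.33, and the one for NM_002878 gave 0.04. RAD51C changed by -0.19 ± 0.14, XRCC2 by 0.02 ± 0.15 and XRCC3 by 0.10 ± 0.16, none of which passed. The break sensors RAD50 and NBN changed by -0.15 ± 0.11 and -0.04 ± 0.14, and RBBP8, which starts the trimming of the ends, by 0.13 ± 0.14 in MDAH and -0.23 ± 0.14 in SKOV3.

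Of the translesion genes, RAD18, the ligase that marks the replication clamp so that special polymerases can take over, stood at 0.25, 0.48, 1.11 and 1.05 in MDAH cells and 1.53, 1.52, 1.74 and 1.76 in SKOV3 cells. All silenced arrays lay above their controls, most in MDAH with a change of 0.72 ± 0.15 (adjusted p = 0.0673), and the average of 0.47 ± 0.10 sat just outside the threshold (adjusted p = 0.0505). The average passed in 4 of 10 other settings with no array left out. Among these were an intensity trend in limma (adjusted p = 0.0343) and normexp background correction (adjusted p = 0.0232). With no filter on dim probes it missed the threshold (adjusted p = 0.0874). The polymerases POLH, REV1 and REV3L changed by -0.22 ± 0.11, 0.13 ± 0.12 and -0.02 ± 0.11 in the average. The second POLH probe gave -0.16 in MDAH, -1.26 in SKOV3 and -0.71 in the average (adjusted p = 0.201). Of the mismatch repair genes, MSH6, a subunit of the sensor, stood at 4.87, 5.05, 5.35 and 5.46 in MDAH cells and 5.23, 5.03, 5.05 and 5.19 in SKOV3 cells, above both controls in MDAH (change 0.44 ± 0.16, adjusted p = 0.169), and overlapping them in SKOV3 (change -0.01 ± 0.16). PMS2, a subunit of the nuclease that follows, changed by -0.26 ± 0.14 and 0.09 ± 0.14. Its other probes disagreed in sign, from -0.42 to 0.20 in MDAH and from -0.07 to 0.27 in SKOV3.

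Compared as branches, nucleotide excision repair and the checkpoint had the higher medians in MDAH cells, and translesion genes in SKOV3 cells. In MDAH the median log2 change was 0.35 for nucleotide excision, 0.26 for the checkpoint, 0.12 for Fanconi anemia, 0.09 for mismatch repair, 0.08 for homologous recombination and -0.01 for translesion genes, beside 0.10 for all genes tested. The MDAH median of genes well above background on all arrays, as the members were, was 0.13. Of the 11 nucleotide excision genes, 8 had both silenced arrays above both controls in MDAH (35.6% of all genes did) and 2 below (21.4%). In SKOV3 the medians ran from -0.11 for homologous recombination to 0.13 for translesion genes, beside -0.04 for all genes, and 3 nucleotide excision genes were above both controls (25.9% of all genes) and 3 below (32.1%). In the average the range was -0.03 for homologous recombination to 0.15 for nucleotide excision, beside 0.04. Minus the median of all genes, that of nucleotide excision in MDAH was 0.24, and it ran from 0.14 to 0.32 in the other settings. Without sh-SFPQ#3 in MDAH it was 0.14 and that of the checkpoint 0.21, so that the order of these 2 branches rests on that array. These medians are descriptions without a test.

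**Figure D3:**
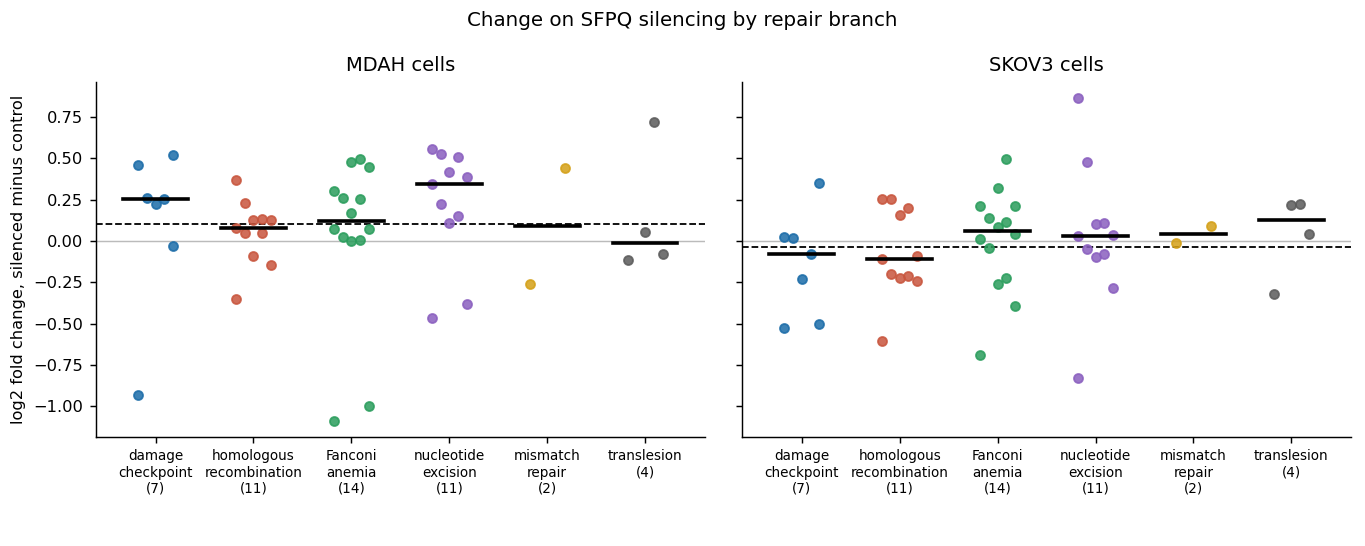
Log2 fold change of each gene (points) on SFPQ silencing by branch, with the branch median (bar), the median of all genes tested (dashed, 0.10 in MDAH and -0.04 in SKOV3) and the number of genes in brackets. The bars of nucleotide excision (0.35) and the checkpoint (0.26) are the higher ones in MDAH, in an order that turns without sh-SFPQ#3, and the low points at about -1 in MDAH are ATM, FANCC and FANCL.

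Over all branches, both silenced arrays lay above both controls for 23 of the 49 genes in MDAH (35.6% of all genes tested) and below for 8 (21.4%). In SKOV3 15 lay above (25.9%) and 15 below (32.1%). In both lines at once, 10 genes lay above (12.4% of all genes), namely ATR, BRCA1, PALB2, FANCA, FANCD2, FANCF, ERCC3, ERCC6, XPC and RAD18, and 5 below (10.3%), namely ATM, RAD51D, FANCC, FANCL and DDB2. A further 5 lay above in MDAH and below in SKOV3 (8.38%), and none the other way (3.37%). Some of these placings rest on small margins, as that of FANCA in MDAH does. In MDAH the lowest silenced array of FANCF stood at 2.773, against 2.770 for the higher control. In SKOV3 the lowest silenced array of ERCC3 stood at 1.981, against 1.971 for the higher control. The placings are those of the brightest probe. The second FANCF probe stood at 2.06, 2.04, 2.35 and 1.99 in MDAH cells and 0.25, 0.31, 0.28 and 0.39 in SKOV3 cells. It overlapped in both lines, with an average change of 0.08 ± 0.12. Some other probes of FANCA, FANCD2, ATM, RAD51D and DDB2 overlapped the controls in MDAH. The changes of the 49 genes in the 2 lines correlated with r = 0.55 (Spearman's rho 0.50, n = 49 genes), beside r = 0.42 (rho 0.31) over all genes tested. The lines share no array but share the hairpins, the scaling and the slide.

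**Figure D4:**
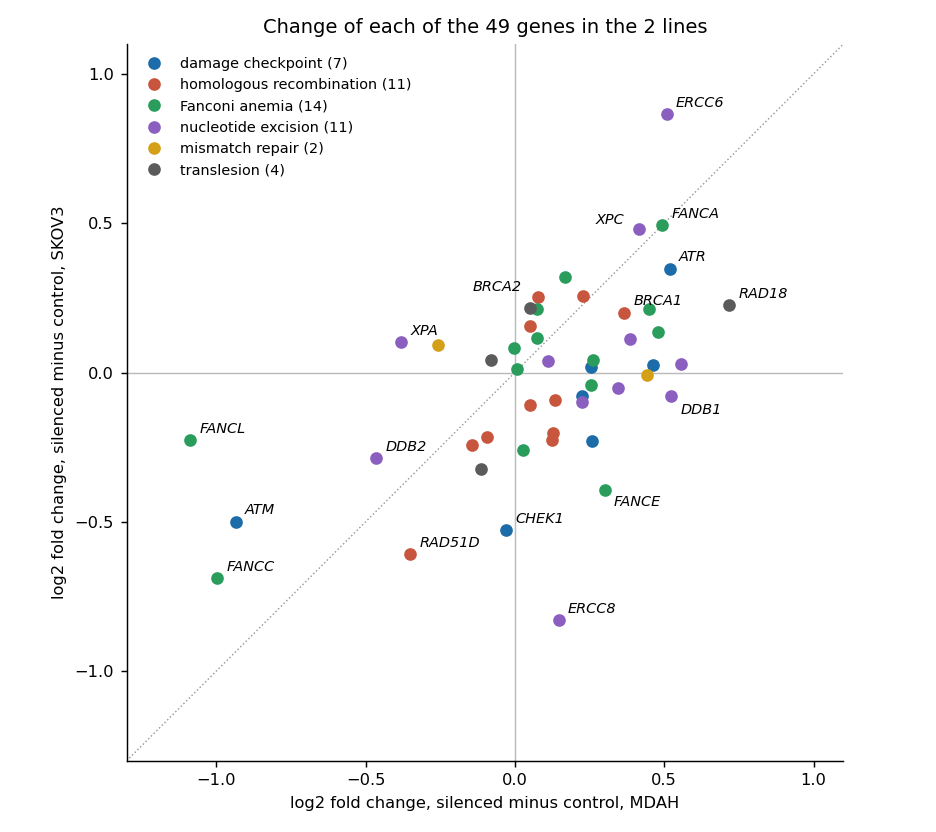
Log2 fold change on SFPQ silencing in MDAH (x axis) against SKOV3 cells (y axis) for each of the 49 genes, coloured by branch, with the line of equal change dotted. FANCC and ATM lie low in both lines, FANCL low in MDAH, ERCC6 high in both and ERCC8 low in SKOV3 only, at -0.83.

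Of the other genes of these pathways, 82 were listed from general knowledge and 80 tested. Of these 3 fell in the average and none rose, or 3.75% where 5.66% of all genes passed. None passed in MDAH (2.03% of all genes did) or in SKOV3 (0.997% did). RAD51B, a further recombinase paralog, fell by 2.46 ± 0.53 (adjusted p = 0.0475 from limma), at 0.03, -0.20, -1.83 and -3.85 in MDAH cells and -2.01, -1.37, -3.05 and -4.67 in SKOV3 cells, where the arrays with sh-SFPQ#3 were the lowest and only 6 of 8 arrays were well above background. ZRANB3, a fork-remodelling translocase, fell by 0.88 ± 0.15 (adjusted p = 0.0288) and RAD54B, a motor protein of recombination, by 0.64 ± 0.13 (adjusted p = 0.0388). The median of the 80 genes was 0.17 in MDAH, -0.11 in SKOV3 and 0.04 in the average, beside 0.13, 0.02 and 0.07 for the 49 and 0.10, -0.04 and 0.04 for all genes. Genes well above background on all arrays, as the 49 were, had medians of 0.13, -0.04 and 0.05. By branch, the 20 other nucleotide excision genes had medians of 0.17, -0.13 and 0.002. The 14 other checkpoint genes had 0.36, -0.11 and 0.09, and the 8 other translesion genes 0.05, 0.06 and 0.04. The MDAH median of 0.35 for nucleotide excision was thus not shared by its other genes, while that of the checkpoint was. None of 9 tested end-joining genes passed in any silencing comparison, where the highest share of all genes was the 5.66% of the average.

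Many repair genes are expressed most while cells copy their DNA, and lists of proliferation genes differed in sign between the lines. Of 30 S phase genes 28 were above 0 in MDAH (median 0.48) and 10 in SKOV3 (median -0.11). Of 27 mitosis genes 26 were above 0 in MDAH (median 0.45) and none in SKOV3 (median -0.54). In these lists CCNE1 rose by 0.58 and POLA1 fell by 1.12 in the average (adjusted p = 0.0342 and 0.0422 from limma). No other of their genes passed, where 5.66% of all genes passed in the average. The share that cell cycle has in the values of the 49 genes was not tested.

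The larger differences were between the lines before silencing. Between the controls, 25 of the 49 genes passed (51.0%, where 57.5% of all genes did), 13 of them higher in MDAH (26.8% of all genes) and 12 higher in SKOV3 (30.7%). CHEK2, ERCC5, FANCF, XRCC2 and ATM were the furthest above in MDAH cells, and BRCA2, RBBP8, RAD18 and ATR the furthest above in SKOV3 cells. Of the kinases ATM, CHEK2 and CHEK1 were higher in MDAH and ATR in SKOV3. The direction of these 25 genes was the same in the 19 other settings run, and 17 to 26 of the 49 passed when 1 array was left out.

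CHEK2 stood at 3.79, 4.07, 4.40 and 3.90 in MDAH cells and 0.63, 0.63, 0.79 and 0.31 in SKOV3 cells. The controls differed by 3.29 ± 0.24, 9.81-fold (adjusted p = 6.28e-05 from limma), and the silenced arrays kept the gap. Of its 6 probes, 5 gave differences of 3.29 to 3.35, and that for NM_145862 gave 1.40. PMS2 stood at 3.47, 3.47, 3.24 and 3.19 in MDAH cells and 2.09, 2.24, 2.22 and 2.30 in SKOV3 cells, with a difference of the controls of 1.31 ± 0.14 (adjusted p = 0.000315) and 1.20 to 1.77 over its 6 probes. CHEK2, PMS2 and FANCD2 have near-identical copies elsewhere in the genome that their probes could also read.

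The nuclease ERCC5 stood at 2.67, 2.95, 2.99 and 2.86 in MDAH cells and 1.07, 1.20, 1.11 and 1.24 in SKOV3 cells (1.67 ± 0.16, adjusted p = 0.000213). The core complex adaptor FANCF stood at 2.60, 2.77, 2.77 and 2.93 in MDAH cells and 0.92, 1.18, 1.24 and 1.50 in SKOV3 cells (1.63 ± 0.17, adjusted p = 0.000326), and its second probe gave 1.77. XRCC2 stood at 2.11, 2.26, 2.07 and 2.57 in MDAH cells and 0.76, 0.45, 0.58 and 0.45 in SKOV3 cells (1.58 ± 0.21, adjusted p = 0.000877). In all 3 every MDAH array lay above every SKOV3 array, silenced or not. ATM differed by 1.54 ± 0.19 (adjusted p = 0.000626 from limma), and DDB2, a known target gene of p53, by 1.35 ± 0.18 (adjusted p = 0.000806). A link of the DDB2 difference to the p53 of the lines was not tested.

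The nuclease subunit EME1 stood at 0.89, 1.21, 0.96 and 1.30 in MDAH cells and 0.20, 0.10, 0.29 and 0.44 in SKOV3 cells (0.90 ± 0.19, adjusted p = 0.00585). The bridge PALB2 stood at -0.15, -0.07, 0.23 and 0.01 in MDAH cells and -0.97, -0.89, -0.64 and -0.70 in SKOV3 cells (0.82 ± 0.15, adjusted p = 0.00302), and the translocase FANCM at 1.70, 2.12, 2.19 and 2.16 in MDAH cells and 1.21, 1.12, 1.06 and 1.36 in SKOV3 cells (0.75 ± 0.19, adjusted p = 0.0148). In these too all MDAH arrays lay above all SKOV3 arrays. FANCD2 stood at 1.57, 1.72, 1.84 and 2.35 in MDAH cells and 1.11, 1.03, 1.19 and 1.37 in SKOV3 cells (0.57 ± 0.20, adjusted p = 0.0465), while its other 2 probes gave -0.07 and -0.10. FANCE and CHEK1 differed by 0.61 and 0.50 (adjusted p = 0.0363 and 0.036). Of 11 other settings with no array left out, FANCE and CHEK1 each passed in 9 and FANCD2 in 8.

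In the other direction, BRCA2 differed by -1.30 ± 0.15 (adjusted p = 0.000476), RAD18 by -1.16 ± 0.15 (adjusted p = 0.00066), ATR by -1.10 ± 0.17 (adjusted p = 0.00181), XPA by -0.83 ± 0.15 (adjusted p = 0.00306) and BRCA1 by -0.76 ± 0.13 (adjusted p = 0.00267). RBBP8 stood at 2.59, 2.47, 2.64 and 2.66 in MDAH cells and 3.78, 3.77, 3.64 and 3.46 in SKOV3 cells (-1.25 ± 0.14, adjusted p = 0.000443). TP53BP1 stood at 2.07, 2.17, 2.42 and 2.34 in MDAH cells and 3.06, 3.12, 3.17 and 3.06 in SKOV3 cells (-0.97 ± 0.14, adjusted p = 0.00115), and the polymerase REV1 at -0.66, -0.73, -0.47 and -0.82 in MDAH cells and 0.31, 0.28, 0.60 and 0.42 in SKOV3 cells (-0.99 ± 0.17, adjusted p = 0.00252). All SKOV3 arrays of these 3 lay above all MDAH arrays.

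The 4 remaining genes had smaller differences. Of 11 other settings with no array left out, RAD51C, FANCG and NBN each passed in 7 and ERCC3 in 5. RAD51C stood at 2.96, 3.20, 3.15 and 2.73 in MDAH cells and 3.71, 3.70, 3.58 and 3.34 in SKOV3 cells (-0.62 ± 0.20, adjusted p = 0.0321), and FANCG, a core complex subunit, at 4.29, 4.64, 4.63 and 4.82 in MDAH cells and 4.92, 5.17, 5.07 and 4.94 in SKOV3 cells (-0.58 ± 0.19, adjusted p = 0.0338). NBN stood at 1.20, 0.85, 1.19 and 1.10 in MDAH cells and 1.59, 1.58, 1.59 and 1.18 in SKOV3 cells (-0.57 ± 0.20, adjusted p = 0.0452). ERCC3 stood at 1.33, 1.55, 1.79 and 2.20 in MDAH cells and 1.97, 1.94, 1.98 and 1.99 in SKOV3 cells (-0.51 ± 0.18, adjusted p = 0.0471).

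**Figure D5:**
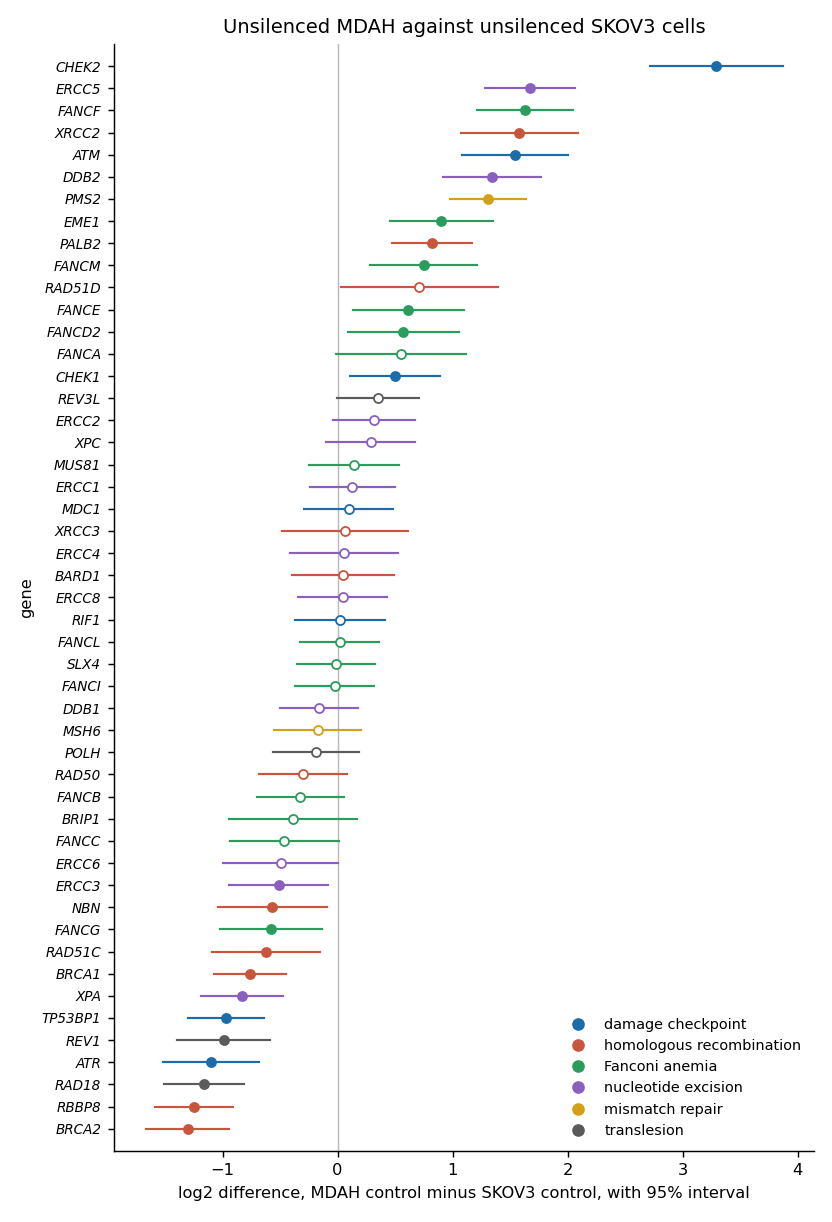
Log2 difference of each of the 49 genes between the MDAH and the SKOV3 controls (points, 2 arrays a line) with its 95% interval, sorted and coloured by branch, filled where the adjusted p is under 0.05. CHEK2 stands apart at 3.29, and the filled points at the other end run to -1.30 for BRCA2.

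With 2 arrays per group the calls on silencing were thin. FANCL in MDAH lost its call without either MDAH control or without sh-SFPQ#3 in MDAH (adjusted p from 0.0713 to 0.176). The average of ATM, FANCC and FANCL passed without either array with sh-SFPQ#2 and missed the threshold without any of the 6 others, at adjusted p of up to 0.149, 0.124 and 0.109, and that of ERCC6 passed only without sh-SFPQ#2 in SKOV3 (up to 0.181 otherwise). ATM missed the threshold with arrays centred on their median (adjusted p = 0.0665). ATM, FANCC and ERCC6 missed it with no filter on dim probes (adjusted p = 0.066, 0.0523 and 0.0816), ERCC6 with the 75th percentile of probes above background on all arrays (adjusted p = 0.0573), and FANCL in MDAH with each line fitted alone (adjusted p = 0.0761). With 1 array left out the sizes ran from -0.59 to -0.84 for ATM, -0.72 to -0.97 for FANCC, -0.61 to -0.70 for FANCL and 0.55 to 0.82 for ERCC6.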

How the data were processed

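RNA was hybridised to 8 single-colour Agilent arrays with 62976 spots. The deposited intensity values were the processed signals of the scanner software, Feature Extraction (version 11.5.1.1 per the file headers, 10.7.3.1 in the submitters' processing notes), background-subtracted by it. The deposited table of the series holds log2 values that the authors quantile-normalized and centred on each probe's median, and it was used as an alternative. Outlier spots were dropped, spots averaged per probe, log2 taken and each array's 75th percentile subtracted. RefSeq accessions named 28174 of 50599 probes. The brightest probe stood for its gene, which was tested if both arrays of some group were well above background. Groups were compared in limma 3.58.1 (R 4.3.3) over all 8 arrays and 15552 genes, with 4 residual degrees of freedom and Benjamini-Hochberg adjustment at 0.05. The script was tested on simulated data. Members and lists were chosen with earlier results of these data known. Full values are given for members past the threshold, the 4 highest and 4 lowest of each comparison, and ATR, BRCA1, BRCA2, BARD1 and ERCC1. Alternatives were scaling, background correction, dim-probe filter, probe choice, test, samples in the fit, the replicate block and each array left out. The number of arrays limits the precision.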

Additional observations from a re-analysis of the deposited data

Results flagged for a closer look

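In 5 genes both silenced arrays lay above the controls in MDAH and below them in SKOV3 cells, and the difference between the lines (MDAH change minus SKOV3 change, log2) was tested in limma and passed in none of them. It was 0.98 ± 0.23 (SE) for ERCC8 (adjusted p = 0.197), 0.70 ± 0.29 for FANCE (adjusted p = 0.328), 0.49 ± 0.23 for RIF1 (adjusted p = 0.366), 0.40 ± 0.21 for ERCC2 (adjusted p = 0.402) and 0.35 ± 0.20 for RBBP8 (adjusted p = 0.438). For ERCC2 in SKOV3 the margin was small, with the higher silenced array at -0.763 against -0.761 for the lower control. The XPA probe of the noncoding transcript NR_027302, which is not the probe used for the gene, was higher on silenced arrays of both lines, by 0.57 ± 0.11 in the average (adjusted p = 0.0378 over all named probes).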

How the results depend on the processing

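With 2 arrays a group, the number of the 49 genes past the threshold moved with the processing while the direction of each called gene held in every setting. In MDAH it was 1, and 2 with the 75th percentile of probes above background on all arrays, 4 after normexp with quantile normalization (ATM, FANCC, FANCL and RAD18), 3 with an intensity trend, 0 with each line fitted alone, and 0 to 2 when 1 array was left out. In the average it was 4, and 1 with no filter on dim probes, 1 to 6 over the alternatives and 0 to 5 with 1 array left out. In SKOV3 it was 0 to 2 with 1 array left out (ERCC6 and ERCC8 without sh-SFPQ#2 in SKOV3), and between controls 17 to 26. Over all genes, 316 passed in MDAH and 114 to 862 over the alternatives, 155 in SKOV3 (0 to 688) and 880 in the average (370 to 1770). The silenced numbers mark the same hairpin in both lines, and the difference between the hairpins correlated at 0.36 across the lines (over genes), while that between the controls correlated at 0.08, and no label says that a number marks a shared batch. With the replicate block across the lines 2 genes passed in MDAH (FANCC and FANCL) and 3 in the average, without ERCC6 (adjusted p = 0.0505). A block for slide or scan was not run, since there was 1 of each. SFPQ in MDAH (-1.50) missed the threshold with arrays centred on their median (-1.39, adjusted p = 0.061), and SFPQ in both lines did so with no filter (-1.50 and -2.01) or with each line alone (-1.50 and -2.01). With 1 array left out SFPQ ran from -1.68 to -1.33 in MDAH, -2.27 to -1.74 in SKOV3 and -1.89 to -1.62 in the average. It then missed the threshold in both lines without any 1 of the 4 controls, in MDAH also without sh-SFPQ#3 in MDAH, in SKOV3 also without sh-SFPQ#3 in SKOV3, and in the average without either MDAH control. The median of all genes in MDAH shifted by 0.11 with median centring and by -0.12 with the percentile of detected probes, so branch medians are given minus that median. With quantile normalization, the authors' table, no filter and the mean of all probes, nucleotide excision in MDAH (0.24) was 0.32, 0.32, 0.18 and 0.16. Mismatch repair in MDAH (-0.01) was -0.094 with quantile normalization, -0.094 in the authors' table, -0.082 after normexp and -0.075 with no filter. Nucleotide excision in SKOV3 (0.07) was 0.053, 0.053, -0.0099 and 0.11 in the same 4 settings. After normexp and with no filter, translesion in MDAH (-0.12) was -0.039 and -0.18, and Fanconi anemia in SKOV3 (0.10) was 0.068 and 0.14. With no filter homologous recombination in MDAH was -0.089, and nucleotide excision and mismatch repair in the average were 0.065 and -0.016. With the mean of all probes nucleotide excision in the average was 0.17. With 1 array left out the branch medians minus that of all genes had these ranges. In MDAH these were nucleotide excision 0.14 to 0.25, checkpoint 0.092 to 0.21, homologous recombination -0.052 to -0.011, Fanconi anemia -0.037 to 0.13, mismatch repair -0.025 to 0.019 and translesion -0.16 to -0.017. In SKOV3 these were nucleotide excision 0.038 to 0.081, checkpoint -0.19 to -0.023, homologous recombination -0.16 to 0.03, Fanconi anemia 0.068 to 0.10, mismatch repair 0.014 to 0.14 and translesion 0.099 to 0.24. In the average these were nucleotide excision 0.080 to 0.15, checkpoint -0.025 to 0.13, homologous recombination -0.13 to 0.021, Fanconi anemia 0.011 to 0.14, mismatch repair -0.0042 to 0.057 and translesion -0.038 to 0.071. Of the genes recomputed in every setting, BARD1, BRCA2 and ERCC1 turned sign, all without a call, and other members as near to 0 were not recomputed. BARD1 in MDAH was -0.035 with quantile normalization, -0.069 with the percentile of detected probes, -0.036 in the authors' table, -0.053 after normexp and -0.029 to 0.13 with 1 array left out, and in the average it was 0.0088 with median centring and -0.15 to 0.086 with 1 array left out, as in SKOV3 with -0.34 to 0.12. BRCA2 in MDAH was -0.041 with the percentile of detected probes and -0.022 to 0.18 with 1 array left out. ERCC1 was -0.24 to 0.039 in SKOV3 and -0.0052 to 0.13 in the average with 1 array left out. The cause of these changes was not tested. The normexp setting on median pixel signals and the listing of every named probe were chosen after seeing the data.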
